A study of Mus musculus with 54 samples.

Results

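The transcripts of 9 secreted cytokine genes were followed through 15 conditions of mouse macrophages: Il6, Lif and Osm of the interleukin-6 family, Il10, Il15, the colony-stimulating factors Csf1, Csf2 and Csf3, and Ifnb1, the gene of interferon beta. The genes were chosen by symbol, and 9 of 9 were found among the 39179 gene identifiers of the count files. The cells were thioglycolate-elicited peritoneal exudate cells of C57BL/6 mice aged 8 to 20 weeks, lavaged 4 days after the injection and selected only by adherence. In the polarization experiment, single-end 50-base libraries (SE50), cells of 3 mice were left unpolarized (M0), or treated for 24 h with 100 ng/ml LPS plus 50 ng/ml IFNγ (M1-like) or 10 ng/ml IL-4 (M2-like), and each mouse's RNA was sequenced as 2 technical replicates, which were summed. In the reprogramming experiment, paired-end 150-base libraries (PE150), 12 conditions had 3 replicates each: M0, M1-like and M2-like cells, each untransfected and mock-treated (transfection reagent without siRNA), and M2-like cells given a non-targeting negative siRNA pool, a pool against Myc, Pparg, E2f1 or Stat6, or the pool against all 4 transcription factors (combined knockdown). These M2-like cells had 24 h of IL-4 before transfection and none afterwards, and RNA was taken 48 h after transfection. The methods place sequencing of untransfected cells 24 h after polarization, without naming the experiment, and do not say whether LPS and IFNγ stayed on the mock-treated M1-like cells, so the SE50 and PE150 libraries were never tested against each other. Where the methods describe RNA for PCR they count 3 biological replicates of each polarized state and of the combined knockdown, but no source used here ties the PE150 replicates to separate animals, and their p-values measure the spread between these libraries only.

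These cytokines carry signals between macrophages and other cells. IL-6, leukemia inhibitory factor (Lif) and oncostatin M (Osm) signal through receptors that share the subunit gp130, the product of Il6st, whereas IL-10 restrains inflammatory gene expression in the macrophage itself. IL-15 is shown to T and NK cells on its own receptor chain, Il15ra. M-CSF (Csf1), GM-CSF (Csf2) and G-CSF (Csf3) sustain macrophages, dendritic cells and granulocytes, and interferon beta induces antiviral genes in the cell that makes it and in its neighbours. Transcription of Il6 and Ifnb1 is switched on by NF-κB with AP-1, C/EBP or interferon regulatory factors (IRF), and the mRNAs of most of these genes are short-lived.

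The promoters of Il6 and Ifnb1 are shown because these genes went from a few reads or none to their highest levels. They did so under M1-like polarization (Il6) or under siRNA (Ifnb1). IRF and C/EBP factors are also among the regulators counted here, whereas no NF-κB subunit is. Both are RefSeq sequences of GRCm38.p6, 250 bases that end just before the annotated start, printed in the direction of transcription, with matches to 5 motifs in capitals. The motifs were searched on both strands as GGGANNTTC for NF-κB, TGANTCA for AP-1, TTGNGCAA for C/EBP, AANNGAAA for IRF and TATAAA for the TATA box. The Il6 promoter lies at chr5:30012864-30013113 on the plus strand and the Ifnb1 promoter at chr4:88522795-88523044 on the minus strand.
Il6: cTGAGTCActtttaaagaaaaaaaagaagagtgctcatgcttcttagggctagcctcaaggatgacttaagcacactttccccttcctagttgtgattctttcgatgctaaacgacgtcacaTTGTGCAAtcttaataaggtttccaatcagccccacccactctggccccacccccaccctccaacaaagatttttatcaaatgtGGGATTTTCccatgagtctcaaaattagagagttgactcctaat
Ifnb1: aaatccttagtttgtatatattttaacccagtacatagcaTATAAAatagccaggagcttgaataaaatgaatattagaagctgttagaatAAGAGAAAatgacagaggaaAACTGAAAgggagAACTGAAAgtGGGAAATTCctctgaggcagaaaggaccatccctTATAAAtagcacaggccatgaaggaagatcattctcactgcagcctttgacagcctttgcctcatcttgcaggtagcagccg
In Il6 the NF-κB match began 44 bases before the start, the C/EBP match 128 and the AP-1 match 249. In Ifnb1 the NF-κB match began 116 bases before the start, with IRF matches beginning 159, 139 and 126 bases before it and TATA matches at 210 and 82. Of 32851 RefSeq promoters of the same length, 3.23% held the NF-κB letters, 6.75% the AP-1, 2.61% the C/EBP, 21.3% the IRF and 12.4% the TATA letters. No 2 matches overlapped. A match is a description of the letters and not a measured binding site. Promoter sequences were matched for 5 of the 9 members.

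Total counts ran from 39577911 to 59443987 per mouse and treatment in SE50 and from 13421854 to 19704195 per library in PE150, so a transcript of the same share gave several times more reads in SE50. Technical replicates of the same mouse differed by little more than sampling noise (chi-square per gene 1.07 to 1.1), against 3.63 to 52.4 between mice. Relative to M2-like mock, the single pools left E2f1 at 18.9% ± 3.03 (SD, n = 3), Pparg at 24.1% ± 2.82, Stat6 at 27.9% ± 5.91 and Myc at 35.4% ± 7.45. In the combined knockdown the means were 45.2% for E2f1, 31.0% for Pparg, 55.1% for Stat6 and 36.8% for Myc. Relative to the negative pool, the combined knockdown left E2f1 at 60.4%, Pparg at 28.3%, Stat6 at 53.9% and Myc at 39.6%. The single pools left them at 25.2%, 21.9%, 27.3% and 38.0% of the negative pool. The 6 macrophage markers (Adgre1, Csf1r, Cd68, Itgam, Lyz2 and Mertk) summed to between 6162 and 18252 CPM (counts scaled to the TMM-normalized library size) in every library. Other cells were also present in PE150: 5 fibroblast and mesothelial markers (Col1a1, Dcn, Msln, Upk3b and Pdgfra) summed to 11.4 to 43.3 CPM in the M1-like libraries and 58.7 to 239 CPM in the rest. In SE50 the same sum was 6.60 to 14.7 CPM. Of the neutrophil markers, Ly6g was at 0 in 36 and S100a9 in 35 of 36 PE150 libraries, whereas S100a8 ran from 3.10 to 13.1 CPM and was higher in M1-like than in M0 cells (0.71 untransfected and 1.10 mock-treated, log2). The summed T cell markers reached at most 5.16 CPM, mast cell markers 5.99, NK cell markers 0.508 and eosinophil markers 0.163 CPM in PE150, and 0.354, 2.86, 0.70 and 0.0184 CPM in SE50. In bulk samples fewer cells of a type and less RNA per cell cannot be told apart.

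A member was counted as measured where it passed the filter of the edgeR fit (about 10 reads in at least the libraries of 1 condition, and 15 in all), and as called where its adjusted p over all genes was under 0.05. In PE150, 7 of 9 members were measured, and Csf2 and Csf3 were too low. Csf2 had 5 reads in all, found in 4 of 36 libraries: 1 and 2 in M1-like mock, 1 in the Myc and 1 in the E2f1 knockdown. Csf3 had 110 reads in all and between 0 and 8 per library, and without the filter neither gene was called in any PE150 comparison. In M0 cells Csf3 had 16 reads after mock treatment and 2 untransfected. The ratio of summed reads was 7.38, with a counting interval of 1.73 to 66.1. For untransfected cells the intervals of M1-like over M0 (0.752 to 36.4) and M2-like over M0 (0.408 to 26.2) included 1. These intervals cover counting error only and not the spread between libraries. Il6, Il10, Lif and Ifnb1 passed the filter through a part of the conditions only. Il6 stood at 0 to 4 reads in every PE150 library outside the M1-like, Myc and combined conditions, and Ifnb1 at 0 to 4 reads outside the Myc and combined knockdown. PE150 counts of called members that include Il6 or Ifnb1 in comparisons with these conditions are therefore given without weight beside the background. In SE50 the unmeasured members were Csf2, with 1 read in all 9 samples, and Ifnb1, with 22 reads, all in M1-like cells.

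**Figure D1:**
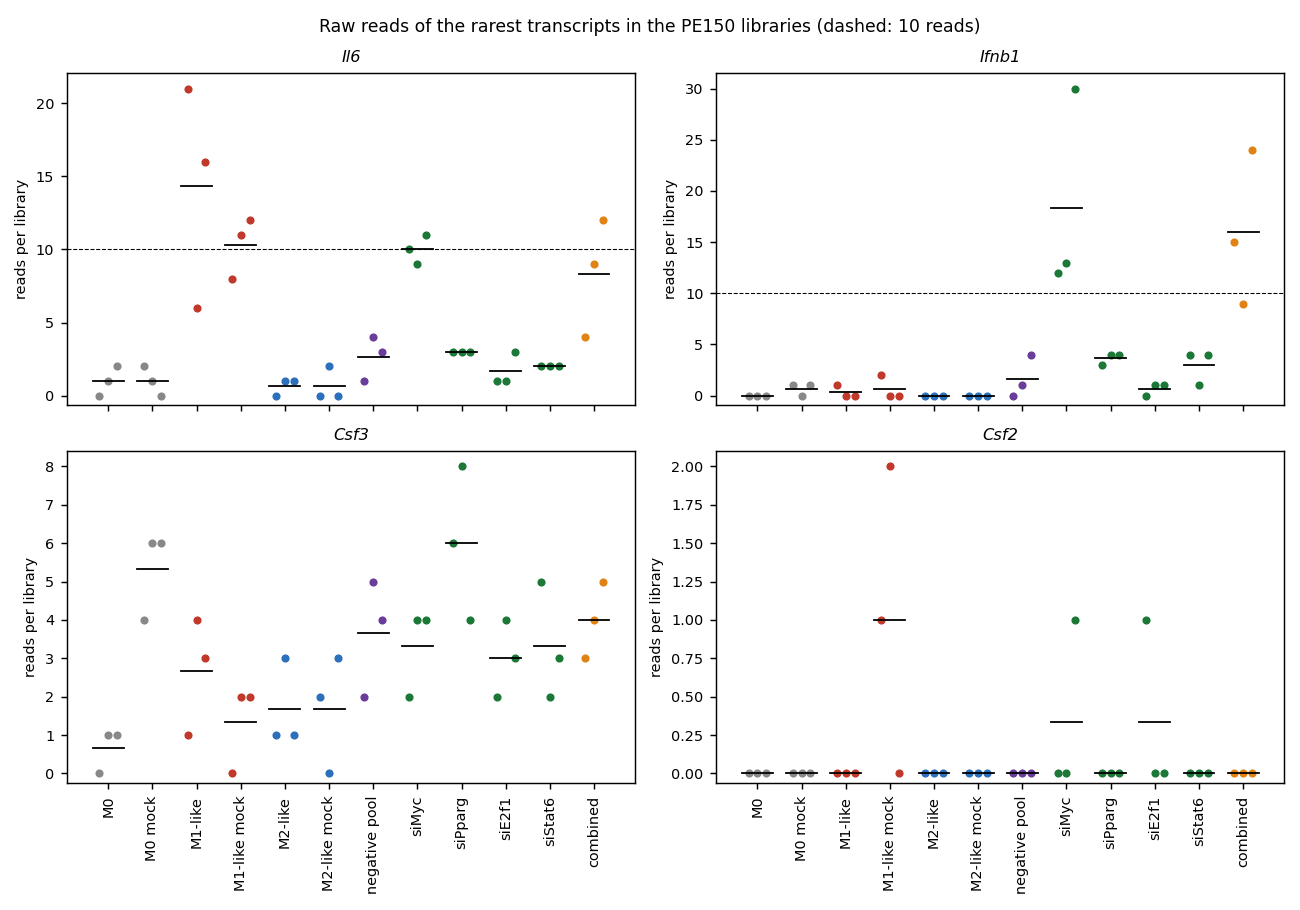
Raw reads per library (points, 3 per condition) and their mean (line) of Il6, Ifnb1, Csf3 and Csf2 in the 12 PE150 conditions, with a dashed line at 10 reads. Il6 reached 21 reads in M1-like cells and Ifnb1 30 reads in the Myc knockdown, whereas Csf3 stayed at or under 8 and Csf2 at or under 2.

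Polarization with LPS plus IFNγ raised Csf1, Il15 and Osm, which were measured in all 3 states of SE50, and also Il6, Csf3, Il10 and Lif. These 4 had at most 8 reads in any M0 sample and passed the filter through the M1-like group, so the count of 7 of 7 higher than M0 is given without weight beside the background (72.9% of 16110 genes called, 35.4% higher). The same holds for the 7 of 7 higher than M2-like cells (background 72.6% called, 34.6% higher). IL-4 moved fewer members: against M0, Il6 and Csf1 were higher and Il15 and Osm lower in M2-like cells, 4 of 7 at a background of 27.9%. The M0 and M1-like samples serve in several of these comparisons, which are therefore not independent of each other.

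PE150 held the same contrast with and without the transfection step. Between untransfected cells, 5 of 7 members (Il6, Lif, Il15, Csf1 and Osm) were higher in M1-like than in M0 (background 57.7% of 14172 genes called, 29.0% higher). Between mock-treated cells, Il6 and Il15 were higher and Il10 lower (3 of 7, background 60.4%). The difference between these contrasts was itself called for Il15 and Osm (2 of 7, background 9.07%), though for neither in a fit of only the 4 groups or without certain single libraries (adjusted p = 0.0528 to 0.124). Against M2-like mock, M1-like mock had higher Il6, Osm and Il15 (3 of 7, background 60.7%). Untransfected M2-like cells differed from M0 in Il15, which was higher, and Osm, which was lower (2 of 7, background 19.9%), and between mock-treated cells Osm was lower in M2-like (1 of 7, background 3.83%).

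**Figure D2:**
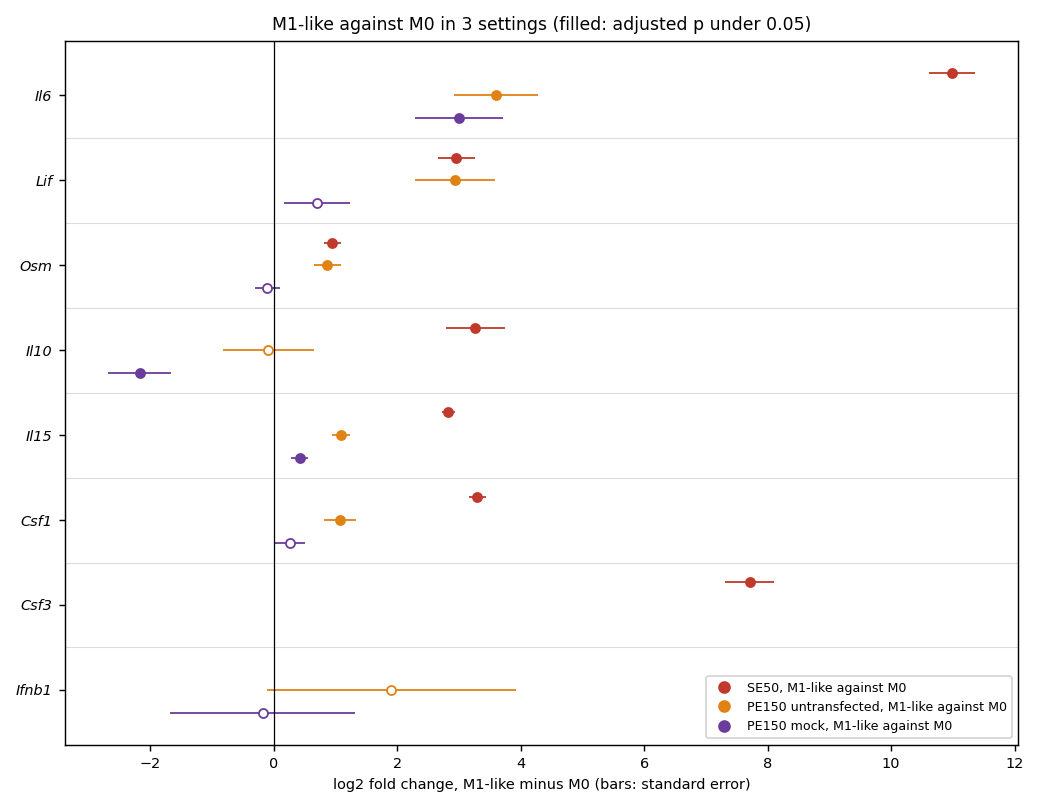
Log2 fold change of each member in M1-like minus M0 cells (horizontal axis; bars are the standard error) in SE50 and in the untransfected and mock-treated PE150 cells; filled points passed an adjusted p of 0.05. The SE50 points lie between 0.94 for Osm and 10.98 for Il6 and Il10 changes sign between the settings; the Il6, Csf3 and Ifnb1 points rest on M0 groups of 0 to 3 reads, so their fitted sizes depend on the prior count.

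Members differed between mock-treated and untransfected cells in some cell states. The methods do not make clear when RNA of the untransfected PE150 cells was taken. In every comparison of mock-treated with untransfected cells, the transfection step and time in culture cannot be told apart. In M0 cells, Il10, Csf1, Osm and Il15 were higher after mock treatment (4 of 7, background 20.4%). In M1-like cells edgeR called 0 of 7 and 0 genes overall between mock and untransfected cells, with 0 members at an unadjusted p under 0.05 and 0 of 7 by DESeq2. In M2-like cells it called 0 of 7 (background 1.77%), with 0 at an unadjusted p under 0.05 and 0 of 5 by DESeq2. The negative siRNA pool against M2-like mock raised Csf1, Osm and Il15 (3 of 7, background 11.7%).

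Against the negative pool, the combined knockdown raised Ifnb1 and Osm (2 of 7, background 26.5%). The Myc knockdown raised Ifnb1, Il6 and Lif and lowered Il10 (4 of 7, background 29.6%). The Pparg, E2f1 and Stat6 knockdowns had 0 of 7 called by edgeR, at backgrounds of 5.74%, 0.91% and 1.51%. In each, 0 members were at an unadjusted p under 0.05. DESeq2 called 0 of 3 for Pparg, 0 of 5 for E2f1 and 0 of 3 for Stat6, giving the other members no adjusted p. Against mock, without the negative pool, the counts were 7 of 7 for the combined knockdown (background 37.1%, 19.0% higher), 5 for Myc (38.7%), 6 for Pparg (17.2%), 5 for Stat6 (11.5%) and 2 for E2f1 (11.6%), all of them higher. For the combined and Myc knockdowns, the counts against mock and against the negative pool are given without weight beside the background. Ifnb1 passed the filter through these conditions, and Il6 through them and the M1-like cells. These comparisons share the negative pool or the mock libraries as control. The methods name Dharmacon as supplier of the Myc siRNA and siTools Biotech for the E2f1, Pparg and Stat6 pools. They name no supplier for the negative pool. Loss of Myc and the reagent used cannot be told apart in the Myc knockdown, and the part of the supplier was not tested.

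The combined knockdown was also set against each single one. Against the Myc knockdown edgeR called 0 of 7 members (background 0.0494%), with 1 at an unadjusted p under 0.05 (Il10) and 0 of 7 by DESeq2. Against Pparg 1 of 7 was higher (Ifnb1, background 18.0%), against E2f1 5 (Ifnb1, Il6, Lif, Osm and Csf1, background 21.6%) and against Stat6 3 (Ifnb1, Il6 and Osm, background 22.2%). Against M1-like mock, the combined knockdown had higher Ifnb1, Il10, Lif and Csf1 (4 of 7, background 52.9%). In the same contrast 4 of 4 tested fibroblast and mesothelial markers were higher (Upk3b by 5.05, Pdgfra by 3.47, Col1a1 by 3.36 and Dcn by 2.80 on the log2 scale), as were both tested mast cell markers (Tpsb2 by 3.48 and Cpa3 by 3.33), and their part in the result was not tested.

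**Figure D3:**
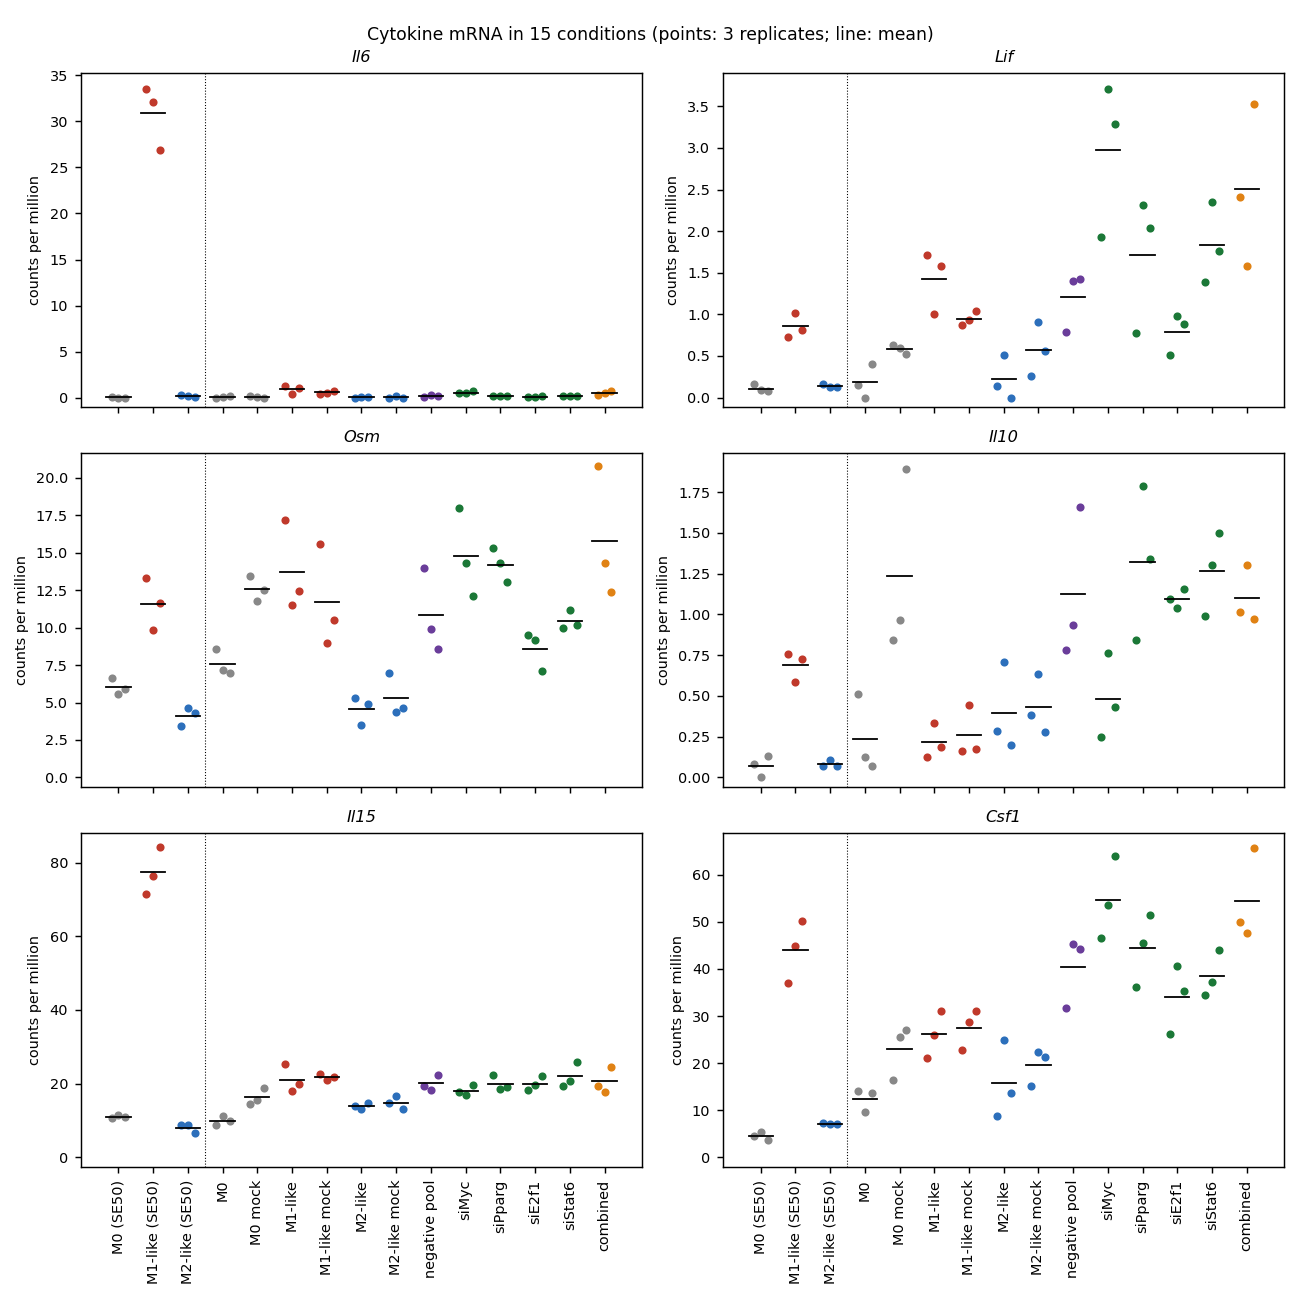
CPM (vertical axis, linear) of Il6, Lif, Osm, Il10, Il15 and Csf1 in every replicate (points) and their mean (line) across the 15 conditions; the dotted line separates SE50 from PE150, which were not tested against each other. Il6 stands at 26.9 to 33.6 CPM in SE50 M1-like cells and at or under 1.28 CPM in PE150, while the mean of Csf1 in PE150 is highest in the Myc and combined knockdowns.

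Il6 (ENSMUSG00000025746, chr5:30013114-30019981, plus strand of GRCm38) encodes the best known inflammatory cytokine of the set. In SE50 it had 1242, 1259 and 1294 reads in the M1-like samples (30.9 CPM ± 3.5, SD, n = 3), 2, 0 and 0 in M0 and 13, 9 and 3 in M2-like cells. The M1-like samples stood far above all others. With 2 reads in M0, the ratio of M1-like to M0 from summed reads was 2413, with a 95% counting interval of 668 to 19936 (edgeR adjusted p = 7.34e-11). Against M2-like cells the log2 fold change was 7.55 ± 0.27 (SE, adjusted p = 1.25e-10). The 25 reads of M2-like cells were 12.7 times the M0 level (3.18 to 111, adjusted p = 0.0164), a call lost without M0 replicate 2 or 3 or without M2-like replicate 1 (adjusted p = 0.0531 to 0.0637).

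In PE150, Il6 had 21, 6 and 16 reads in untransfected M1-like cells against 0, 1 and 2 in M0, a ratio of 13.5 (4.32 to 68.0, adjusted p = 3.38e-05). In mock-treated cells the reads were 8, 11 and 12 in M1-like against 2, 1 and 0 in M0 and 0, 2 and 0 in M2-like, ratios of 8.89 (2.77 to 45.5, adjusted p = 0.000573) and 12.2 (3.12 to 106, adjusted p = 0.00035). Every M1-like library lay above every M0 and M2-like library of its kind.

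After siRNA, Il6 had 10, 9 and 11 reads in the Myc knockdown and 4, 9 and 12 in the combined knockdown, against 1, 4 and 3 with the negative pool. The other pools stayed in the range of the negative pool, with 3, 3 and 3 reads for Pparg, 1, 1 and 3 for E2f1 and 2, 2 and 2 for Stat6. The Myc knockdown did not overlap the negative pool, and its log2 fold change was 1.67 ± 0.59 (adjusted p = 0.0313). Without negative pool replicate 1 or 3 or Myc replicate 3 the adjusted p was 0.081 to 0.147, and the call was also lost by DESeq2 and without the filter. The combined knockdown overlapped the negative pool and missed the threshold (1.55 ± 0.61, adjusted p = 0.0579), but passed it without negative pool replicate 2 or combined replicate 1 (0.0499 and 0.0359). Against mock the combined knockdown was 10.9 times higher (2.73 to 95.2, adjusted p = 0.0017).

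Il6 was higher in the combined than in the E2f1 knockdown (2.15 ± 0.67, adjusted p = 0.0192) and in the combined than in the Stat6 knockdown (1.85 ± 0.65, adjusted p = 0.0366). The first call was lost without E2f1 replicate 1 or 2 or combined replicate 3 (0.0824 to 0.109), and its size was 2.87 without E2f1 replicate 3. The second was lost without any Stat6 replicate or combined replicate 2 or 3 (0.0704 to 0.17). Both were lost without the filter, and the second by DESeq2. Between the combined knockdown and M1-like mock the log2 difference was -0.17 ± 0.48 (adjusted p = 0.793), a standard error that leaves room for a change in either direction. In the order of PE150 means, from 0.898 CPM in M1-like to 0.0435 in untransfected M2-like cells, 10 of 11 neighbouring conditions overlapped, the exception being the step from the combined (0.491) to the Pparg knockdown (0.193).

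Lif (ENSMUSG00000034394, chr11:4257557-4272514, plus strand) encodes a gp130 cytokine known for its action on stem cells and hepatocytes. In SE50 its level was 0.73, 1.02 and 0.811 CPM in M1-like, 0.16, 0.0932 and 0.0735 in M0 and 0.162, 0.124 and 0.127 in M2-like samples. The M1-like samples did not overlap the others, with log2 fold changes of 2.96 ± 0.30 against M0 (adjusted p = 2.36e-06) and 2.63 ± 0.29 against M2-like (adjusted p = 4.95e-06). In untransfected PE150 cells Lif was 1.71, 1 and 1.58 CPM in M1-like against 0.146, 0 and 0.409 in M0 (2.94 ± 0.65, adjusted p = 0.000249), a difference that was 2.30 without M0 replicate 2 and 4.26 without M0 replicate 3. In mock-treated cells it was 0.87, 0.933 and 1.04 against 0.631, 0.591 and 0.523 CPM (0.70 ± 0.53, adjusted p = 0.259). The groups were again apart, but the difference did not pass the test.

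The highest mean Lif levels of PE150 were in the Myc knockdown (1.92, 3.71 and 3.29 CPM) and the combined knockdown (2.42, 1.58 and 3.53 CPM). The negative pool gave 0.782, 1.4 and 1.43 CPM and M2-like mock 0.256, 0.911 and 0.558 CPM. Neither knockdown overlapped the negative pool, but in the order of all 12 means 11 of 11 neighbours overlapped. The difference from the negative pool passed for Myc (1.30 ± 0.42, adjusted p = 0.0184), but not without negative pool replicate 1 or Myc replicate 2 or 3 (0.0568 to 0.0978). For the combined knockdown it was 1.05 ± 0.43 (adjusted p = 0.0686), and it passed without combined replicate 2 (0.0382), by DESeq2 and without the filter. Against mock the combined knockdown was 4.35-fold higher (2.12 ± 0.49, adjusted p = 0.000839).

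Lif was higher in the combined than in the E2f1 knockdown, where it was 0.514, 0.981 and 0.882 CPM (1.64 ± 0.46, adjusted p = 0.00865). That call was lost without E2f1 replicate 1 or combined replicate 3 (0.0564 and 0.0723). Against M1-like mock the combined knockdown was 2.62-fold higher (1.39 ± 0.43, adjusted p = 0.00763), though not without combined replicate 3 (adjusted p = 0.0688).

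Osm (ENSMUSG00000058755, chr11:4236420-4241026, plus strand) lies beside Lif and encodes oncostatin M, a macrophage product that acts on stromal cells and hepatocytes. In SE50 it was 13.3, 9.86 and 11.7 CPM in M1-like, 6.6, 5.56 and 5.92 in M0 and 3.4, 4.65 and 4.3 in M2-like samples. The 3 groups did not overlap. M1-like was 1.92-fold above M0 (0.94 ± 0.14, adjusted p = 4.95e-05) and 2.8-fold above M2-like (adjusted p = 1.12e-06). M2-like was 1.46-fold below M0 (adjusted p = 0.0138), a call lost without M0 replicate 1 (0.0674).

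In PE150 Osm was again higher in M1-like (17.2, 11.5 and 12.4 CPM) than in M0 cells (8.56, 7.2 and 6.96 CPM) when untransfected (0.86 ± 0.22, adjusted p = 0.00109). Mock-treated M0 cells had risen to 13.5, 11.8 and 12.5 CPM, and M1-like mock (15.6, 8.99 and 10.5 CPM) overlapped them (-0.11 ± 0.21, adjusted p = 0.677). M2-like mock was lower, at 6.98, 4.35 and 4.6 CPM, below M0 mock (-1.23 ± 0.23, adjusted p = 0.000962) and below M1-like mock (adjusted p = 7.51e-05). Untransfected M2-like cells (5.29, 3.48 and 4.89 CPM) were 1.66-fold below M0 (adjusted p = 0.0321), which did not hold without M0 replicate 1 or 2 or M2-like replicate 2 or 3 (0.0506 to 0.166). The rise of M0 with mock treatment (0.73 ± 0.22, adjusted p = 0.0153) was lost without M0 replicate 2 or 3 (0.0599 and 0.0658).

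The negative pool raised Osm over M2-like mock to 14, 9.94 and 8.58 CPM (1.02 ± 0.23, adjusted p = 0.00261). In the combined knockdown it was 20.8, 14.3 and 12.3 CPM and in the Myc knockdown 18, 14.3 and 12.1 CPM. Both overlapped the negative pool. The difference passed for the combined knockdown (1.46-fold, 0.54 ± 0.21, adjusted p = 0.0483) but not without negative pool replicate 2 or 3 or combined replicate 1 or 2 (0.0543 to 0.355), nor when only these groups were fitted. For Myc it was 0.46 ± 0.21 (adjusted p = 0.0919), and it passed without negative pool replicate 1 (0.0257) and without the filter.

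Osm in the Pparg knockdown was 15.3, 14.3 and 13 CPM, in the Stat6 knockdown 9.97, 11.2 and 10.1 CPM and in the E2f1 knockdown 9.5, 9.17 and 7.13 CPM. The combined knockdown exceeded the E2f1 knockdown (1.83-fold, adjusted p = 0.00272) and the Stat6 knockdown (1.51-fold, adjusted p = 0.0357). The Stat6 difference was lost without any Stat6 replicate or combined replicate 1 (0.0579 to 0.279). Against mock the combined knockdown was 2.95-fold higher (1.56 ± 0.22, adjusted p = 1.24e-06). Against M1-like mock it was 0.43 ± 0.20 higher on the log2 scale (adjusted p = 0.0711), a difference that passed without M1-like mock replicate 1 or combined replicate 3 (0.00848 and 0.0265) and without the filter.

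Il10 (ENSMUSG00000016529, chr1:131019845-131024974, plus strand) encodes the anti-inflammatory member of the set. In SE50 it was 0.757, 0.587 and 0.728 CPM in M1-like samples, 0.08, 0 and 0.129 in M0 and 0.0695, 0.106 and 0.0725 in M2-like. LPS plus IFNγ thus raised it 9.62-fold over M0 (3.27 ± 0.47, adjusted p = 5.58e-05) and 8.04-fold over M2-like cells (adjusted p = 8.75e-05). Without M0 replicate 3 the log2 fold change over M0 was 4.07. M2-like and M0 samples overlapped. In PE150 the M1-like cells did not stand out: untransfected Il10 was 0.122, 0.335 and 0.189 CPM in M1-like, 0.512, 0.124 and 0.0682 in M0 and 0.286, 0.709 and 0.198 in M2-like cells.

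In mock-treated M0 cells Il10 was 0.841, 0.967 and 1.89 CPM, 5.28-fold over untransfected M0 (2.40 ± 0.55, adjusted p = 0.00171, and 3.56 without M0 replicate 1). M1-like mock stayed at 0.163, 0.442 and 0.174 CPM and was 4.52-fold below M0 mock (-2.18 ± 0.51, adjusted p = 0.000456; -2.81 without M1-like mock replicate 2). M2-like mock, at 0.384, 0.631 and 0.279 CPM, overlapped M1-like mock (adjusted p = 0.342) and lay below every M0 mock library, without passing the test (adjusted p = 0.0839). The summed fibroblast and mesothelial markers were 109 to 172 CPM in M0 mock and 11.4 to 21.4 CPM in M1-like mock. They moved with Il10 there. The summed T cell markers were 0.136 to 0.496 CPM in untransfected M0, 0.491 to 5.16 in M0 mock and 0 to 0.163 in M1-like mock. Of the 2 tested, only Cd4 was called, by 2.32 (log2) in M0 mock over untransfected M0. It was lower in M1-like mock than in M0 mock (-4.12), as was 1 of 2 tested mast cell markers (Tpsb2, -3.14). The part of these other cells in the result was not tested.

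With the negative pool Il10 was 0.782, 0.934 and 1.66 CPM, above every mock library, without passing the test (1.38 ± 0.49, adjusted p = 0.0657). The Myc knockdown lay below every negative pool library, at 0.247, 0.763 and 0.434 CPM (-1.22 ± 0.46, adjusted p = 0.045). That call was lost without negative pool replicate 2 or 3 or Myc replicate 1 or 3 (0.0534 to 0.283). The other pools stayed near the negative pool: 1.02, 1.3 and 0.973 CPM in the combined, 0.843, 1.79 and 1.34 in the Pparg, 1.09, 1.04 and 1.15 in the E2f1 and 0.99, 1.3 and 1.5 in the Stat6 knockdown.

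The combined knockdown was above every Myc knockdown library in Il10, by 1.18 ± 0.46 on the log2 scale, which did not pass the adjustment over all genes. It was 4.05-fold above M1-like mock (2.02 ± 0.51, adjusted p = 0.00129; 2.65 without M1-like mock replicate 2) and 2.54-fold above M2-like mock (1.34 ± 0.49, adjusted p = 0.0317). The last call was lost without mock replicate 1 or 3 or combined replicate 2 (0.0941 to 0.121). In the order of the 12 PE150 means, 10 of 11 neighbours overlapped, and the exception was the step from the E2f1 knockdown (1.09 CPM) to the Myc knockdown (0.481 CPM).

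Il15 (ENSMUSG00000031712, chr8:82331632-82403222, minus strand) encodes a growth and survival factor of NK cells and memory T cells. In SE50 it was 71.5, 76.4 and 84.2 CPM in M1-like samples against 10.6, 11.3 and 10.9 in M0 and 8.82, 8.62 and 6.55 in M2-like. The 3 groups did not overlap. M1-like was 7.07-fold above M0 (2.82 ± 0.11, adjusted p = 2.09e-10) and 9.7-fold above M2-like (adjusted p = 6.95e-11), and M2-like was 1.37-fold below M0 (adjusted p = 0.00884).

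In PE150 Il15 varied within a narrower range, 9.9 CPM ± 1.23 in M0 being the lowest mean and 22.0 ± 3.54 in the Stat6 knockdown the highest. Untransfected M1-like cells, at 25.4, 18.1 and 19.8 CPM, were 2.13-fold above M0 at 8.64, 11.1 and 9.96 CPM (1.09 ± 0.14, adjusted p = 8.69e-08). Untransfected M2-like cells, at 14, 13 and 14.7 CPM, were 1.4-fold above M0 (adjusted p = 0.0176), where SE50 had M2-like below M0. That call was lost without M0 replicate 1 (0.0992) or M2-like replicate 3 (0.0608). Mock-treated M0 cells stood at 14.5, 15.5 and 18.8 CPM (1.64-fold over untransfected M0, adjusted p = 0.000479). M1-like mock at 22.7, 20.9 and 21.6 CPM was 1.34-fold above M0 mock (0.42 ± 0.13, adjusted p = 0.00793). M1-like mock was also 1.47-fold above M2-like mock (14.7, 16.8 and 13 CPM; adjusted p = 0.00074).

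The negative pool raised Il15 over mock to 19.4, 18.3 and 22.4 CPM (1.36-fold, adjusted p = 0.0319). Without mock replicate 1 or 3 or negative pool replicate 1 or 3 the adjusted p was 0.0613 to 0.175. Against the negative pool no siRNA pool passed the test, and the log2 differences were 0.04 ± 0.13 for the combined, -0.16 ± 0.13 for the Myc, -0.01 ± 0.13 for the Pparg, -0.01 ± 0.13 for the E2f1 and 0.13 ± 0.13 for the Stat6 knockdown. Against mock the combined knockdown was 1.39-fold higher (adjusted p = 0.00614), though not without combined replicate 3 (0.0819). Between the combined knockdown and M1-like mock the difference was -0.08 ± 0.13 on the log2 scale (adjusted p = 0.648).

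Csf1 (ENSMUSG00000014599, chr3:107741048-107760469, minus strand) encodes M-CSF, the survival factor of macrophages themselves. In SE50 it was 37, 45 and 50.3 CPM in M1-like, 4.52, 5.33 and 3.66 in M0 and 7.2, 7.09 and 7.07 in M2-like samples. M1-like was 9.8-fold above M0 (3.29 ± 0.14, adjusted p = 5.64e-10) and 6.2-fold above M2-like (adjusted p = 3.13e-09). M2-like was 1.58-fold above M0 (0.66 ± 0.14, adjusted p = 0.00475), the direction opposite to that of Osm and Il15.

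In PE150 untransfected cells Csf1 was 21.1, 26 and 31.2 CPM in M1-like and 14, 9.55 and 13.7 in M0 (2.11-fold, adjusted p = 0.000718). Mock-treated M0 cells reached 16.3, 25.5 and 27 CPM (1.86-fold over untransfected, adjusted p = 0.0131), lost without M0 replicate 2 or M0 mock replicate 2 or 3 (0.0579 to 0.0855). M1-like mock at 22.7, 28.7 and 31.1 CPM overlapped M0 mock (0.25 ± 0.24, adjusted p = 0.373). M1-like mock lay above every M2-like mock library (15.2, 22.3 and 21.4 CPM) without passing the test (0.49 ± 0.25, adjusted p = 0.0852). That difference passed without the filter and when only the groups compared were fitted.

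The siRNA pools gave the highest Csf1 means of PE150, with 11 of 11 neighbours in the order overlapping. The negative pool stood at 31.7, 45.3 and 44.2 CPM, 2.06-fold above mock (1.04 ± 0.24, adjusted p = 0.00362). The Myc knockdown had 46.7, 53.5 and 64 CPM and the combined knockdown 50, 47.7 and 65.8 CPM. Both lay above every negative pool library, by 0.43 ± 0.23 for the combined knockdown (adjusted p = 0.168), which passed without the filter and when only the groups compared were fitted, and by 0.44 ± 0.23 for Myc (adjusted p = 0.15), where the same held. Pparg, E2f1 and Stat6 knockdowns averaged 44.4 ± 7.74, 34.1 ± 7.36 and 38.5 ± 4.91 CPM (n = 3 each) and overlapped the negative pool.

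The combined knockdown exceeded M2-like mock 2.78-fold in Csf1 (1.48 ± 0.24, adjusted p = 1.06e-05) and M1-like mock 1.98-fold (0.99 ± 0.23, adjusted p = 0.00062). It was 1.6-fold above the E2f1 knockdown (adjusted p = 0.0333), which was lost without E2f1 replicate 1 or 3 or combined replicate 3 (0.0696 to 0.178) and by DESeq2. The fibroblast and mesothelial markers summed to 87.0 to 147 CPM in M2-like mock, 151 to 221 with the negative pool and 137 to 213 in the combined knockdown, so they stood apart between mock and negative pool as Csf1 did, and not between negative pool and combined knockdown. Of the 4 tested, none was called between the negative pool and mock by edgeR (background 11.7%). In the combined knockdown 1 was lower than with the negative pool (Upk3b, -1.43, background 26.5%), and their part in the result was not tested.

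Csf3 (ENSMUSG00000038067, chr11:98701263-98703629, plus strand) encodes G-CSF, which drives the making of neutrophils. In SE50 it had 209, 151 and 193 reads in M1-like samples, 1, 1 and 1 in M0 and 2, 0 and 0 in M2-like. It was thus induced 234 times over M0 by summed reads (79.8 to 1140, adjusted p = 4.11e-09) and 345 times over M2-like (95 to 2854, adjusted p = 4.1e-09). In PE150 it had 1, 4 and 3 reads in untransfected and 0, 2 and 2 in mock M1-like cells. Untransfected M0 cells had 0, 1 and 1, M0 mock 4, 6 and 6 and the combined knockdown 3, 4 and 5. M1-like cells were not the highest there. Of the neutrophil markers, Ly6g was at 0 in 6 of 9 SE50 samples and up to 0.562 CPM in the other 3, all M1-like. S100a8 was higher in SE50 M1-like than in M0 cells by only 0.77 on the log2 scale, beside 7.70 for Csf3. S100a9 was at 0 in 8 of 9 SE50 samples and reached at most 0.04 CPM. The part of neutrophils in the Csf3 result was not tested.

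Csf2 (ENSMUSG00000018916, chr11:54247271-54249667, minus strand) encodes GM-CSF. Its 1 SE50 read was in an M1-like sample. A count of 0 in the 3 M0 libraries of PE150 allows up to 0.0675 CPM over the group (3 counts), and in the combined knockdown up to 0.0593 CPM. The gene overlaps an antisense transcript, and whether strand was used in counting is not given in the sources used here.

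Ifnb1 (ENSMUSG00000048806, chr4:88522025-88522774, minus strand) is a single-exon gene, normally silent and switched on by nucleic acid sensors and Toll-like receptors. In SE50 its reads were 2, 2 and 18 in M1-like samples and 0 in all M0 and M2-like samples, at least 9.33-fold over M0 and 9.15-fold over M2-like, with a floor of 3 counts over the group. M1-like replicate 3 held 18 of the 22 reads, and without the filter Ifnb1 was called higher in M1-like cells in both comparisons. In PE150 it was at 0 in every untransfected M0, untransfected M2-like and M2-like mock library. Untransfected M1-like cells had 1, 0 and 0 reads, M1-like mock 2, 0 and 0 and M0 mock 1, 0 and 1.

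Among the siRNA pools, Ifnb1 was highest in the Myc and combined knockdowns, which also had the highest mean Il6, Lif, Osm and Csf1 of the pools. The Ifnb1 reads were 12, 13 and 30 in the Myc knockdown and 15, 9 and 24 in the combined knockdown. They were 0, 1 and 4 with the negative pool, 3, 4 and 4 for Pparg, 4, 1 and 4 for Stat6 and 0, 1 and 1 for E2f1. Every Myc and combined library lay above every other PE150 library. Only these conditions held the Myc siRNA, which came from another supplier than the other factor pools, and the part of the supplier was not tested. Against the negative pool the fold was 9.33 for Myc (3.22 ± 0.72, adjusted p = 0.00134) and 8.85 for the combined knockdown (3.15 ± 0.73, adjusted p = 0.00214). Replicate 3 held 4 of the 5 negative pool reads, and the fitted log2 fold change without it was 4.69 for Myc and 4.61 for the combined knockdown. Without Myc replicate 3 it was 2.54 for Myc. Both calls held without any 1 library (adjusted p at most 0.018).

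Against mock, where Ifnb1 had no reads, the combined knockdown was at least 14.0-fold higher (adjusted p = 6.64e-05) and the Myc knockdown at least 14.5-fold (adjusted p = 4.71e-05). Against E2f1, with 2 reads, the ratio for the combined knockdown was 22.6 (5.93 to 192, adjusted p = 0.000666), and against M1-like mock, also with 2, it was 26.6 (6.96 to 226, adjusted p = 7.79e-05). The combined knockdown was 4.03-fold above Pparg (adjusted p = 0.0283), lost without any Pparg replicate or combined replicate 1 or 3 (0.0579 to 0.156) and by DESeq2. It was 4.73-fold above Stat6 (adjusted p = 0.015), lost without Stat6 replicate 2 (0.0791) or combined replicate 3 (0.0927). Between the combined and Myc knockdowns the log2 difference was -0.08 ± 0.50.

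**Figure D4:**
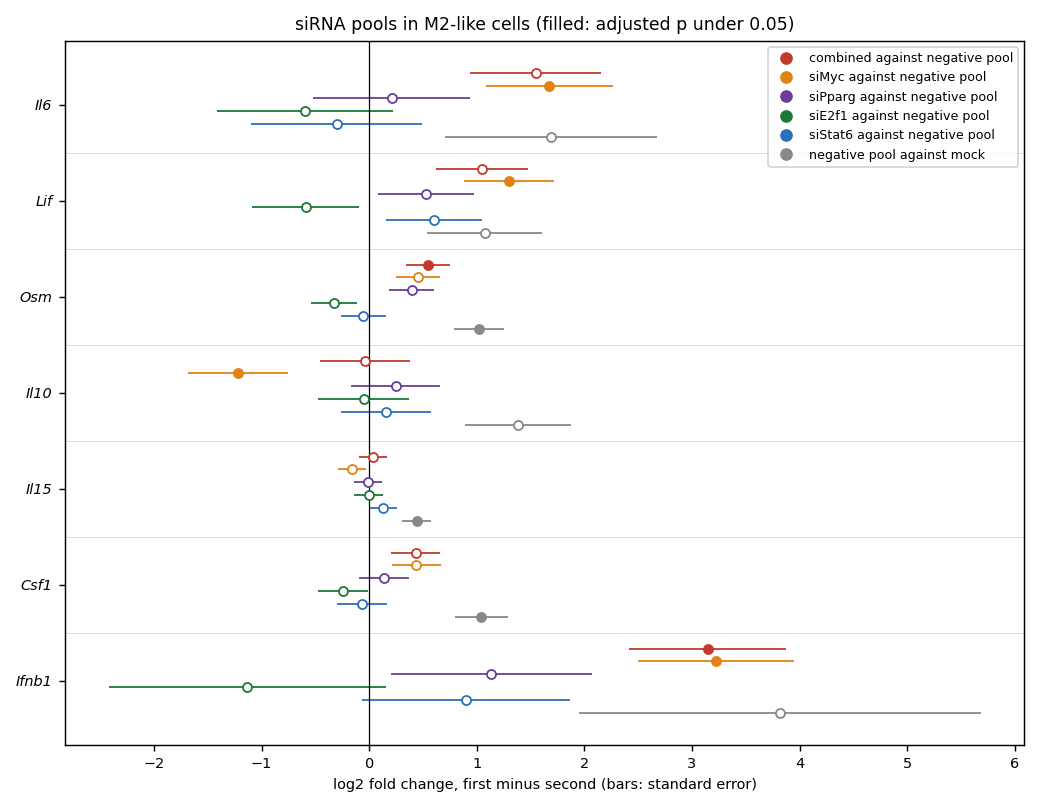
Log2 fold change (horizontal axis; bars are the standard error) of the 7 measured members for each siRNA pool minus the negative pool, and for the negative pool minus mock, in M2-like PE150 cells; filled points passed an adjusted p of 0.05. Ifnb1 is at 3.15 in the combined and 3.22 in the Myc knockdown, Il10 is called at -1.22 in the Myc knockdown, and Osm, Il15 and Csf1 are called for the negative pool; the Ifnb1 and Il6 points against mock rest on 0 and 2 mock reads, so their fitted sizes depend on the prior count.

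Divided by transcript length, the levels can be set beside each other. In SE50 M1-like cells the mean was 34.2 CPM per kb for Il15, 12.7 for Il6, 8.35 for Csf1, 5.11 for Osm, 3.19 for Csf3, 0.527 for Il10, 0.213 for Ifnb1 and 0.196 for Lif. In the combined knockdown Csf1 led with 10.3 CPM per kb, before Il15 with 9.12 and Osm with 6.96. Ifnb1 followed with 1.29, Il10 with 0.838, Lif with 0.576 and Il6 with 0.202. Il6 was thus second in the SE50 M1-like cells and last of the measured members after the combined knockdown, in libraries of different kinds that were not tested against each other.

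The receptors of these cytokines were counted as a list of 16 genes. Against M0, SE50 M1-like cells had 11 of 16 higher and 3 lower (background 72.9% of genes called, 35.4% higher). The median log2 fold change was 1.22 against -0.04 over all genes. The largest changes were in Il15ra (6.04), the shared chain Il2rg (2.71), Il10ra (2.05) and Lifr (2.04). Il15ra, the chain that presents IL-15, stood at 296 CPM ± 15.7 in M1-like and 4.49 ± 0.278 in M0 samples. Between mock-treated PE150 cells 4 of 16 were higher and 10 lower (background 60.4% called), with Il15ra (2.72) and Il2rg (1.56) up and Osmr (-2.59) and Csf2ra (-1.35) down. Osmr, the oncostatin M receptor of stromal cells, thus fell where the summed fibroblast and mesothelial markers were lower, and their part was not tested.

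In the combined knockdown against the negative pool, 3 receptor genes of 16 were higher and 5 lower (background 26.5% called, median -0.17 against 0.01). Il2rg rose by 0.87 on the log2 scale, from 79.7 to 145 CPM, and Il15ra by 0.76, from 7.45 to 12.6 CPM, whereas Il6st (-0.49) and Il10ra (-0.33) fell. The Myc knockdown had 3 higher and 6 lower (background 29.6% called), with Il2rg at 0.80, Il15ra at 0.49, Il6st at -0.48 and Il10ra at -0.39. Il15ra in the combined knockdown was 12.6 CPM ± 0.725, against 45.7 ± 2.19 in M1-like mock (-1.86 on the log2 scale). The list holds Csf2rb and Csf2rb2, near-identical copies between which reads may have been split, so their single values are uncertain.

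The regulators formed a list of 12 transcription and mRNA decay factors. In SE50 M1-like cells 8 of 12 were higher than in M0 and 3 lower (background 72.9% called, 35.4% higher, median 1.05 against -0.04). The largest changes were in Irf7 (6.85), Irf1 (5.85), Nfkbiz (2.79) and Cebpb (2.26), of which the first pair are interferon regulatory factors. Between mock-treated PE150 cells 2 of 12 were higher and 6 lower, near the background of 60.4% called. Irf1 was at 3.81 and Maf, a known activator of Il10, at -1.78. The mRNA decay factor Zfp36 was at -1.23 and Cebpd at -0.81.

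Irf7 was also higher in mock-treated than in untransfected M0 and M2-like cells, where transfection and time in culture cannot be told apart. It stood at 8.76 CPM ± 1.37 in untransfected M2-like cells, 216 ± 84.8 in M2-like mock and 855 ± 24.4 with the negative pool, rises of 4.62 and 1.99 on the log2 scale, and at 1068 ± 80.3 in the combined knockdown. Ifnb1 reads over the same 4 conditions were 0, 0, 5 and 48. The other pools did not keep this order. Over M2-like mock, Irf7 was higher by 2.31 in the combined, 2.32 in the Myc, 2.35 in the Pparg, 2.26 in the Stat6 and 1.97 in the E2f1 knockdown. Ifnb1 had 55 reads in the Myc, 11 in the Pparg, 9 in the Stat6 and 2 in the E2f1 knockdown. A link between Irf7 and Ifnb1 was not tested. In M0 cells Irf7 was higher by 3.34 after mock treatment. Between mock-treated and untransfected M1-like cells 0 of 12 regulators were called, and 0 genes overall. The combined knockdown against the negative pool had 3 of 12 regulators higher and 2 lower (background 26.5% called). Nfkbiz (0.56), Zc3h12a (0.41) and Irf1 (0.41) were up and Zfp36 (-0.42) was down. The Myc knockdown had 3 higher and 1 lower (background 29.6% called), with Zc3h12a (0.52), Nfkbiz (0.51), Cebpd (0.43) and Atf3 (-0.31).

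For each measured member the 3 genes most like it were found by Pearson's r of mean log2 CPM over the 12 PE150 conditions among 11104 genes, as a description: conditions share polarization, transfection and depth. Lif was followed most closely by the chemokine genes Ccl7 (r = 0.977) and Cxcl10 (0.972) and by AW011738 (0.969). Csf1 was nearest to Ifit1bl1 (0.993), Nt5c3 (0.985) and Phf11b (0.982). Il6 was nearest to Chchd10 (0.985), Tmem11 (0.982) and N4bp1 (0.980), and Ifnb1 to Pde8b (0.966), Fam83h (0.964) and Ptpn23 (0.955). For Il10 they were Tom1 (0.942), Ifi207 (0.938) and Pde7b (0.935), for Il15 Ints9 (0.962), March5 (0.960) and Zfp462 (0.955), and for Osm 1700017B05Rik (0.954), Def6 (0.945) and Arhgef37 (0.941). Between members r was 0.947 for Lif with Csf1 and -0.239 for Il6 with Il10.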

How the data were processed

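The deposited values are raw counts per gene, which the authors made by trimming reads with Trimmomatic, aligning them to mm10 with TopHat2 and counting them with featureCounts, per the labels and the study's methods; versions and the strand setting are not given in the sources used here. Genes were named and placed with GENCODE M21. Groups were taken from the labels. Technical replicates of a mouse were summed, since they differed by little more than sampling noise, and 0 columns were left unused. Each experiment was fitted by 1 edgeR 4.0.16 model (R 4.3.3, TMM, filterByExpr with a minimum count of 10 and total of 15). The quasi-likelihood test was two-sided, with Benjamini-Hochberg adjustment over all genes and calls at an adjusted p under 0.05. The step was tested on simulated data, with changes placed only in genes averaging at least 10 counts. Il6 and Ifnb1 averaged fewer in PE150, so their calls there lie outside that check. CPM values are counts scaled to the TMM-normalized library size. Log2 fold changes are given ± SE and levels ± SD. Where a group had 1 to 3 reads, a ratio of summed reads with an exact 95% interval was given, and against 0 reads a floor of 3 counts; both cover counting error only.

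The members and the receptor, regulator and marker lists were chosen with earlier results of these data known, and no list was tested as a set; 1 marker list is not reported here. All members were named; of each list, up to 4 called genes with the largest change; the 3 genes most like a member had a mean log2 CPM of at least 1. In SE50 the replicate number is the mouse, so the numbers pair the samples by design (median correlation of same-mouse deviations 0.25, range -0.06 to 0.42, 9 pairs), and a replicate block changed no call there. Alternatives were DESeq2 1.42.0, RLE size factors, dropping the filter or raising it to 10 counts in every sample, a replicate block, a fit of the compared groups only, a further limit of 1 on the absolute log2 fold change, and each replicate left out in turn. Promoters came from RefSeq (GRCm38.p6). No genome or protein sequence was used here.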

Additional observations from a re-analysis of the deposited data

Results flagged for a closer look

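The rise of M1-like over M0 cells differed between mock-treated and untransfected PE150 cells for 2 of 7 measured members, by an interaction term in the edgeR fit (background 9.07% of genes). For Il15 the difference of log2 fold changes was -0.67 ± 0.20 (adjusted p = 0.0254): M1-like exceeded M0 by 1.09 untransfected and by 0.42 after mock treatment. For Osm it was -0.97 ± 0.30 (adjusted p = 0.0364), from 0.86 to -0.11. In both genes mock-treated M0 cells were higher than untransfected M0 cells (0.71 for Il15 and 0.73 for Osm), and M1-like cells had not been called. Time in culture may also differ between mock-treated and untransfected cells, and its part was not tested. The Il15 term missed the threshold without M0 replicate 1 or 3, M0 mock replicate 3, M1-like replicate 1 or M1-like mock replicate 2 (adjusted p = 0.0528 to 0.101). The Osm term missed it without M0 replicate 2 or 3, M0 mock replicate 1 or 3, M1-like replicate 1 or M1-like mock replicate 2 or 3 (0.0534 to 0.124). When only the 4 groups compared were fitted, 0 members passed.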

How the results depend on the processing

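No called member value changed direction under any alternative run. Of the single-gene values, RLE size factors kept 168 of 168 on their side of the threshold, DESeq2 143 of 149 (4 calls lost, 2 gained), the fit without a filter 156 of 168 (3 lost, 9 gained) and the fit of only the groups compared 109 of 117 (3 lost, 5 gained). With 1 library left out, 967 of 1050 values kept their side, 74 calls were lost and 9 gained.

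The filter decided which members were seen. With at least 10 counts in every sample, 12 member values in the 2 experiments were too low in place of 4, and the calls that could still be made were 3 for SE50 M1-like against M0, 3 for M1-like against M2-like, 3 for untransfected M1-like against M0, 1 for mock M1-like against M0, 1 for the combined knockdown against the negative pool, 3 for it against mock, 3 against the single knockdowns together, 1 against M1-like mock and 0 for Myc against the negative pool, because fewer genes were tested. Without a filter the combined knockdown against the negative pool had 4 calls and the interaction of mock treatment with polarization 4. A further limit of 1 on the absolute log2 fold change left 1 call for SE50 M2-like against M0, 0 for untransfected M2-like against M0, 1 for mock against untransfected M0, 1 for the combined knockdown against the negative pool and 0 for the interaction. With only the groups compared, the combined knockdown against the single ones had 5 calls in place of 9 and the interaction 0; the cause was not tested. With mock as the reference, 6 members were called for Pparg, 2 for E2f1 and 5 for Stat6.

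In PE150 no source used here says what a shared replicate number marks. Same-numbered samples deviated together with a median r of 0.18 over 198 pairs, of which 131 exceeded 0.1 and the lowest was -0.25, against -0.08 between different numbers. As a hint from the data, 34 of 36 libraries correlated best with their own number. A replicate block gave 2 calls in place of 1 for mock M2-like against M0 (Il10 added) and 5 in place of 2 for the combined knockdown against the negative pool (Csf1, Il6 and Lif added). It gave 6 in place of 4 for Myc against the negative pool (Csf1 and Osm added), and 1 more each for the negative pool against mock (Il10), mock M1-like against M2-like (Csf1), the combined knockdown against M1-like mock (Osm) and against Stat6 (Csf1), and the interaction (Csf1). No call was lost.

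With 1 library left out, the counts of called members ran from 7 to 7 for SE50 M1-like against M0 and against M2-like, 3 to 4 for M2-like against M0, 5 to 5 and 0 to 2 for untransfected M1-like and M2-like against M0, 3 to 3 and 1 to 1 for the mock-treated pair, and 3 to 3 for mock M1-like against M2-like. They ran from 2 to 4 for mock against untransfected M0, 2 to 3 for the negative pool against mock, 1 to 2 for the combined knockdown against the negative pool, 6 to 7 against mock, 3 to 9 against the single knockdowns and 4 to 5 against M1-like mock. For Myc against the negative pool they ran from 1 to 3, and for the interaction from 0 to 2. Depth limits the low members: at 13421854 to 19704195 counts per PE150 library, Csf2 and Csf3 could not be measured, and Il6 and Ifnb1 rest on at most 30 reads in any library.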
